A study of Homo sapiens with 6 samples.

Results

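Adherens junctions join neighbouring epithelial cells through cadherins and nectins, and the genes described here are 10 of their components. They are the cadherins CDH1, CDH3 and CDH17, the catenins CTNNA1, CTNNA2 and CTNND1, the nectins NECTIN1, NECTIN2 and NECTIN3, and afadin (AFDN). The members were picked by symbol from a table of 58735 genes, and each matched a single row. RNA was sequenced from SW480, an established human colorectal cancer line labelled wild type. Of 6 libraries, 3 came from cells transfected with a negative-control siRNA and 3 from cells given ITGB4 siRNA, which targets the β4 integrin subunit. Both groups received an siRNA, and no library without one was analysed here. The siRNA sequences, dose and time after siRNA are not given in the sources used here. The series calls the 3 libraries of a group biological replicates. How the cultures were separated is not given in the sources used here, so p-values measure the spread between these libraries. The comparison rests on a single line, and the labels do not say how many siRNA sequences against ITGB4 were used.

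Classical cadherins bind the same cadherin on the next cell with their extracellular repeats, and their cytoplasmic tail carries catenins. The p120 catenin (CTNND1) binds near the membrane and slows cadherin endocytosis, while β-catenin (CTNNB1) or plakoglobin (JUP) binds farther along the tail and recruits α-catenin, the link to actin. Nectins are immunoglobulin-like adhesion molecules that reach actin through afadin, and they often form contacts before cadherins gather there. Because β-catenin is also the effector of Wnt signalling, the cadherin complex and the Wnt pathway share a component. The series title names ITGB4, ezrin and Wnt/β-catenin signalling in colorectal cancer, and the comparison asks which junction transcripts differ when ITGB4 RNA is lowered.

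Recovered reads numbered 13715266 to 15496274 per library, and 24284 to 24968 genes had a value above 0. ITGB4 was the check of the siRNA and was lower in all 3 targeted libraries, at 41.1, 38.1 and 37.9 FPKM against 74.3, 63.8 and 69.8 in the controls (limma adjusted p = 0.0148). The log2 fold change of -0.81 stayed between -0.87 and -0.76 in 14 alternatives, and 6 of them lost the call, at adjusted p from 0.0564 to 0.137: no low-value filter, a replicate block, and leaving out control replicate 3 or any 1 of the 3 ITGB4 siRNA libraries. FPKM is fragments per kilobase of gene and scaled to library size, so levels of different genes can be set side by side. Of 8 colorectal epithelial markers, 5 had a mean of at least 1 FPKM, among them EPCAM, KRT8 and KRT18, while VIL1 reached 0.977 FPKM, KRT20 0.107 and LGALS4 0.0765 at most. The 6 fibroblast markers summed to 0.452 to 0.843 FPKM per library, the 6 endothelial ones to 0.163 to 0.242 and the 6 leukocyte ones to 0.948 to 1.39, with overlapping ranges in both groups. COL1A2, COL3A1, DCN, LUM, CDH5 and KDR were listed at 0 in all 6 libraries.

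SW480 cells expressed 7 of the 10 members, and none of the 7 was called changed by the ITGB4 siRNA. Averaged over the 6 libraries, CTNNA1 stood highest at 92.7 FPKM, followed by NECTIN1 at 25.6, CTNND1 at 24.9, NECTIN2 at 16.8, AFDN at 8.02, CDH1 at 6.25 and CDH3 at 5.31. NECTIN3 at 0.106, CDH17 at 0.0228 and CTNNA2 at 0.0176 FPKM were below the minimum mean of 1 FPKM set for testing. NECTIN1 and CTNND1 overlapped in their ranges over the libraries, as did CDH17 and CTNNA2, and every other pair of neighbours in this order was apart in all 6 libraries. These values are levels per gene length, which among the 7 ran from 3747 bases for NECTIN2 to 13720 for AFDN.

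**Figure D1:**
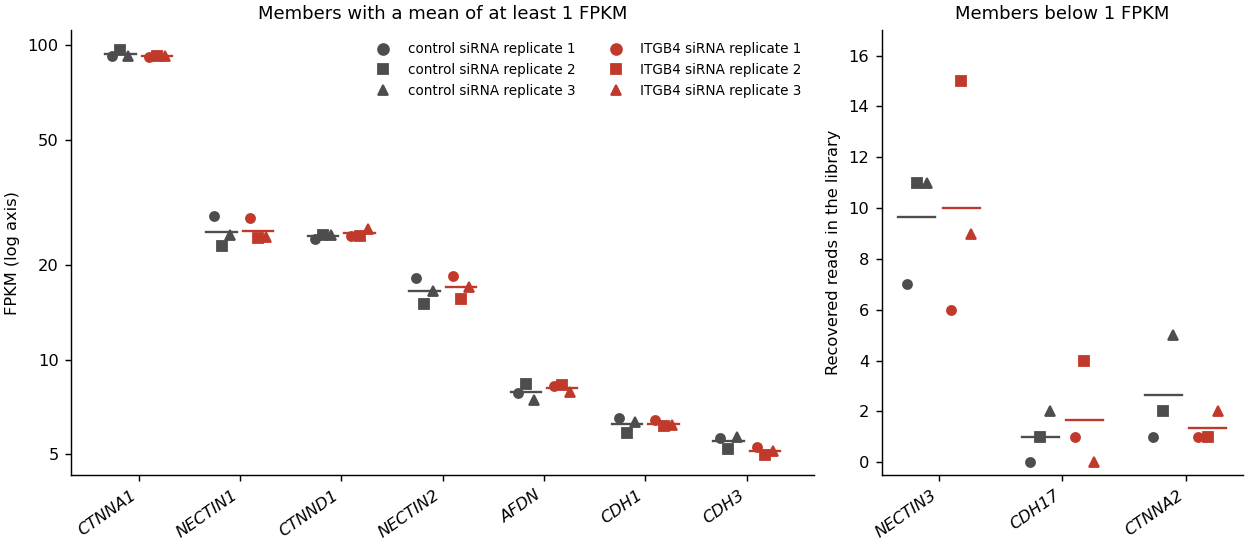
Levels of the 10 members by library. The left panel gives FPKM on a log axis for the 7 members with a mean of at least 1 FPKM, and the right panel gives recovered reads per library for the other 3. Points are libraries, shapes are replicates and bars are group means. In every member the grey control points and the red ITGB4 siRNA points overlap, and CTNNA1 lies between 91.5 and 96.0 FPKM.

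Limma called 0 of the 7 tested members changed at an adjusted p under 0.05, where it called 6 of 12871 genes, or 0.0466%. At an unadjusted p under 0.05 there were again 0 members, against 5.83% of all genes tested, and limma-voom on recovered reads also called 0, against 0.21% of all genes. Groups that did not overlap were found in 0 of the 7, against 11.1% of all genes. The median log2 fold change of the 7 was 0.01, with 5 above 0 and 2 below, and that of all genes tested was -0.0034. With so few genes these shares say little about the members as a group. In bulk RNA, fewer cells expressing a gene and less of its RNA per cell cannot be told apart. Log2 fold changes here are of FPKM + 1, ITGB4 siRNA minus control.

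CDH1 encodes E-cadherin, the main classical cadherin of epithelia. Its level was 6.52, 5.84 and 6.33 FPKM in control replicates 1, 2 and 3, and 6.43, 6.15 and 6.22 FPKM in ITGB4 siRNA replicates 1, 2 and 3. The targeted libraries lay inside the range of the controls. The means were 6.23 ± 0.349 and 6.26 ± 0.147 FPKM (SD, n = 3 each), which is 0.01 in log2 fold change with an SE of 0.0574 (limma adjusted p = 0.998). Its 95% interval of -0.13 to 0.14 runs from 8.55% below to 10.4% above the control on the FPKM + 1 scale. The sign turned to -0.03 without control replicate 2 and to -0.0091 without ITGB4 siRNA replicate 1.

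P-cadherin, the product of CDH3, is a classical cadherin of basal and placental epithelium. CDH3 measured 5.64, 5.18 and 5.67 FPKM in the controls and 5.27, 4.99 and 5.12 FPKM with ITGB4 siRNA. Targeted replicates 2 and 3 were below all 3 controls, and targeted replicate 1 was above control replicate 2, so the groups overlapped. Its mean went from 5.50 ± 0.272 to 5.12 ± 0.141 FPKM (SD, n = 3 each), and the log2 fold change of -0.08 (SE 0.0573, 95% interval -0.22 to 0.05) had the smallest limma adjusted p of the members, 0.996. CDH3 was the member with the largest log2 fold change by size. In the 14 alternatives the value stayed between -0.12 and -0.07.

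CDH1 and CDH3 are neighbours on chromosome 16 of GRCh38. CDH3 runs from 68636189 to 68722616 and CDH1 from 68737225 to 68835548, both on the plus strand, with 14608 bases between them. Both are read by few fragments here, with 535 to 598 reads per library for CDH1 and 455 to 539 for CDH3. Counting alone gives an error of 4.17% for CDH1 and 4.498% for CDH3, which is close to their replicate spread of 2.34% to 5.60% and 2.75% to 4.96% (coefficient of variation in each group).

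CDH17 encodes LI-cadherin, a cadherin of intestinal epithelium with a short cytoplasmic tail that does not bind catenins. The libraries held 0, 1 and 2 reads of it with control siRNA and 1, 4 and 0 with ITGB4 siRNA. Totals of 3 reads (exact Poisson interval 0.619 to 8.77) and 5 reads (1.62 to 11.7) are not apart at this depth, and the intervals cover counting error only. The gene lies on chromosome 8 from 94127171 to 94217303. CDX2, an intestinal transcription factor, stood at 22.1 ± 3.03 FPKM in the controls and 20.4 ± 1.37 FPKM in the targeted libraries (SD, n = 3 each).

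Among the catenins, CTNNA1 encodes αE-catenin, which binds β-catenin with one end and actin with the other. It was at 92.3, 96.0 and 92.1 FPKM in the controls and at 91.5, 92.04 and 92.2 FPKM with ITGB4 siRNA. Control replicate 2 was the highest library, and the 3 targeted libraries had an SD of 0.365 FPKM. The siRNA difference was -0.02 on the log2 scale with an SE of 0.0368 (limma adjusted p = 0.998), and its 95% interval of -0.11 to 0.06 ran from 7.40% below to 4.52% above. Backed by 11191 to 12676 reads per library, this was the narrowest interval among the 7. In the annotation 445 of its 8830 exonic bases are shared with LRRTM2 on the other strand, which stood at 0.0843 to 0.237 FPKM.

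CTNNA2 encodes αN-catenin, the neuronal relative of αE-catenin. It had 1, 2 and 5 reads with control siRNA and 1, 1 and 2 with ITGB4 siRNA. The totals of 8 reads (exact Poisson interval 3.45 to 15.8) and 4 reads (1.09 to 10.2) overlap in their counting error. Mean FPKM of CTNNA1 was 5259 times that of CTNNA2 over the 6 libraries, so α-catenin RNA in SW480 was almost entirely CTNNA1. CTNNA3, the remaining α-catenin, had no read in any library.

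CTNND1, p120 catenin, was at 24.1, 24.9 and 24.8 FPKM in the controls and 24.7, 24.7 and 26.1 FPKM in the targeted libraries. ITGB4 siRNA replicate 3 was the highest of the 6 and control replicate 1 the lowest. Means of 24.6 ± 0.423 and 25.2 ± 0.765 FPKM (SD, n = 3 each) differed by 0.03 on the log2 scale, with an SE of 0.0436 and a 95% interval of -0.07 to 0.13 (limma adjusted p = 0.998). TMX2-CTNND1 and AP001931.1 are annotated on the same strand and share exons with it, the former over 321 bases and the latter over 289 of 8798. TMX2-CTNND1 was listed at 0 and AP001931.1 stood at 0.221 to 1.35 FPKM. The gene occupies chromosome 11 from 57753243 to 57819546.

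Among the 7 tested members, NECTIN1 and NECTIN2 varied most between replicates, and they varied together. NECTIN1 was at 28.7, 22.9 and 24.9 FPKM in the controls and 28.2, 24.4 and 24.5 FPKM with ITGB4 siRNA. NECTIN2 was at 18.2, 15.04 and 16.5 FPKM in the controls and 18.4, 15.5 and 17.1 FPKM in the targeted libraries. In both genes the replicate 1 libraries of the 2 groups were the highest pair and control replicate 2 was the lowest. The ratio of NECTIN1 to NECTIN2 kept to 1.44 to 1.57 in the 6 libraries.

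NECTIN1, on the minus strand of chromosome 11 from 119623408 to 119729084, differed between the groups by 0.01 on the log2 scale, with an SE of 0.0939 and a 95% interval of -0.21 to 0.24. NECTIN2, on the plus strand of chromosome 19 from 44846175 to 44889228, differed by 0.04 with an SE of 0.0869 and an interval of -0.17 to 0.24, and both had a limma adjusted p of 0.998. Their intervals were the widest of the members, reaching 17.9% and 18.3% above the control. Without control replicate 2 the values turned to -0.06 and -0.03, and without ITGB4 siRNA replicate 1 to -0.05 and -0.02. Counting error was smaller than that spread, at 1.85% for NECTIN1 and 3.27% for NECTIN2, while the coefficients of variation within a group were 8.41% to 11.6% and 8.55% to 9.61%.

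The replicate difference of the members went with the GC content of their transcripts. In the longest annotated transcript, GC was 60.4% for NECTIN1 and 59.4% for NECTIN2, 54.1% for CDH3, 48.6% for CDH1, 47.8% for CTNNA1, 46.6% for CTNND1 and 46.2% for AFDN, with a median of 48.8% over all tested genes. On log2(FPKM + 1), control replicate 1 exceeded control replicate 2 by 0.31 in NECTIN1, 0.26 in NECTIN2, 0.10 in CDH3 and 0.14 in CDH1. The same difference was -0.06 in CTNNA1, -0.04 in CTNND1 and -0.09 in AFDN. In the ITGB4 siRNA group NECTIN1 and NECTIN2 differed by 0.20 and 0.23 and the other 5 members by -0.01 to 0.07. Across 12866 tested genes Spearman's rho of GC with the replicate 1 minus 2 difference was 0.68 in the controls and 0.43 in the targeted group, and 0.04 with the siRNA log2 fold change. The genes of a library share its preparation, so this is a description, and the part of GC in the members' values was not tested.

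**Figure D2:**
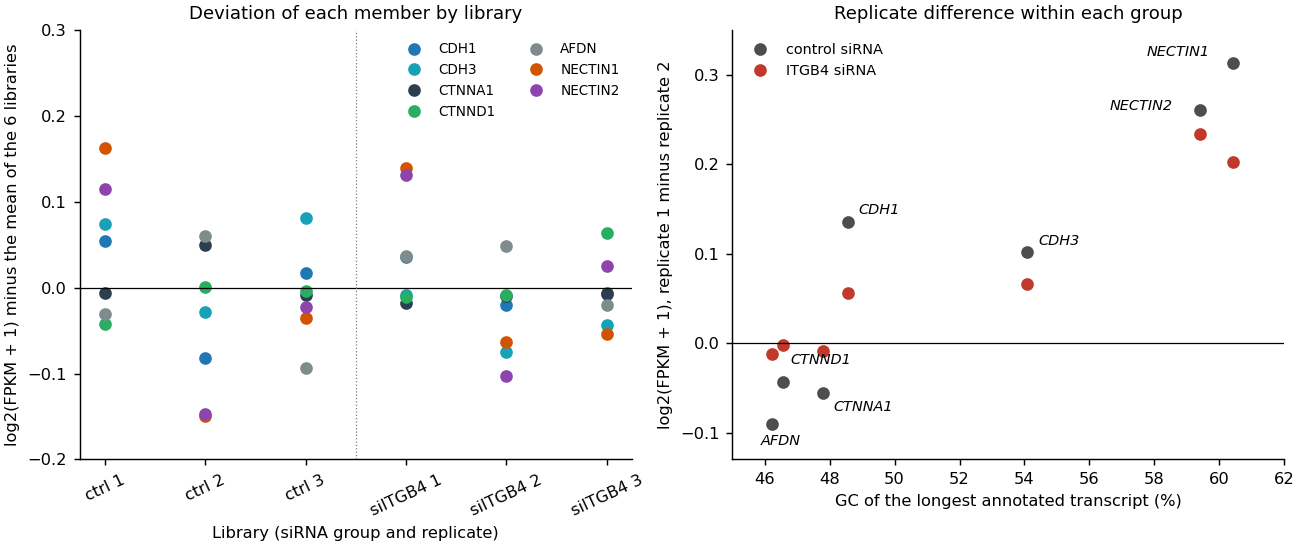
Library-to-library variation of the 7 tested members. The left panel plots log2(FPKM + 1) minus the 6-library mean for each library, and the right panel plots replicate 1 minus replicate 2 in each siRNA group against transcript GC in percent. NECTIN1 and NECTIN2 are high in both replicate 1 libraries and stand at the GC-rich end, at 60.4% and 59.4%.

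NECTIN3, whose product binds NECTIN1 and NECTIN2 on neighbouring cells, was barely detected. It gave 7, 11 and 11 reads in the controls and 6, 15 and 9 in the targeted libraries, or 0.0765 to 0.120 and 0.0700 to 0.159 FPKM. The 29 and 30 reads in all (exact Poisson intervals 19.4 to 41.6 and 20.2 to 42.8) did not separate the groups. NECTIN1 averaged 242 times and NECTIN2 159 times the FPKM of NECTIN3. NECTIN4 was also below the filter, at 0.393 to 0.636 FPKM. PVR, a nectin-like relative that NECTIN3 can bind, was at 34.1, 31.5 and 31.6 FPKM in the controls and 29.2, 31.7 and 30.6 with ITGB4 siRNA, and was named after its values were seen.

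AFDN joins the nectin tail to actin. Its level was 7.83, 8.40 and 7.45 FPKM in the controls and 8.25, 8.32 and 7.89 FPKM with ITGB4 siRNA. Replicate 3 was the lowest library of each group, and the groups overlapped. The log2 difference was 0.04, with an SE of 0.0582 and a 95% interval of -0.10 to 0.18 (limma adjusted p = 0.998), on means of 7.89 ± 0.477 and 8.15 ± 0.232 FPKM (SD, n = 3 each). NECTIN1 and NECTIN2 together had 4.52 to 5.99 times the FPKM of AFDN.

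Promoter sequences are shown for 3 genes of the nectin and afadin arm, because these genes span the range from well expressed to barely detected. RefSeq (GRCh38.p14) windows of 250 bases before to 50 after a start were at hand for 5 of the 10 members, and these 3 have a single start there. Capitals mark the E-box word CACCTG, or CAGGTG on the other strand, the word through which SNAI and ZEB repressors are known to bind the E-cadherin promoter. The windows are chr6:167827385-167827684 for AFDN, chr19:44846047-44846346 for NECTIN2 and chr3:111071566-111071865 for NECTIN3, all on the plus strand.
AFDN: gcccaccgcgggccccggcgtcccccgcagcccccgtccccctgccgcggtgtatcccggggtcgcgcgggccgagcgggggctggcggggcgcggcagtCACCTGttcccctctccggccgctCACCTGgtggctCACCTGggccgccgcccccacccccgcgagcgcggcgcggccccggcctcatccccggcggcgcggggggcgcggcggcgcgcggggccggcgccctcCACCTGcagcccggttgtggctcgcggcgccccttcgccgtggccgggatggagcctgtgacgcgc
NECTIN2: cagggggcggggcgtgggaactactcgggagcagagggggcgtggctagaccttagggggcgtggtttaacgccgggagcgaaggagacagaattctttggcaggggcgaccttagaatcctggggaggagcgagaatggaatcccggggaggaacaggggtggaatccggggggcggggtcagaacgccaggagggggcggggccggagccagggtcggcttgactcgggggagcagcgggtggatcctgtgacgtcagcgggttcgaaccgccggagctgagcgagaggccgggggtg
NECTIN3: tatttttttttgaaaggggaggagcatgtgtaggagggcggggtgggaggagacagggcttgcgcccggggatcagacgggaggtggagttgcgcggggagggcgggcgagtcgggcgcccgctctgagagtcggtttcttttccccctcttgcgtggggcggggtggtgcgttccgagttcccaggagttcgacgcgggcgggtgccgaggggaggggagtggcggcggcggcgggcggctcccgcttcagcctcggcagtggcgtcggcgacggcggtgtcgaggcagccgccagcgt

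The AFDN window holds 4 E-box words, where 20.6% of 35116 RefSeq windows hold at least 1 and 0.635% hold 3 or more. The NECTIN2 and NECTIN3 windows hold 0. None of the 3 windows contains CTTTGA, or TCAAAG on the other strand. These letters are a core of the word read by the TCF factors of the Wnt pathway, and 12.9% of windows contain them. CTNNA1 and CTNNA2, the other members with windows, have 4 starts each and are not printed. CTNNA1 holds 2 of these words in the window of start 3 and 1 in the overlapping window of start 4. CTNNA2 holds 1 in the window of start 1, and the remaining windows of both genes hold 0. CpG dinucleotides number 49 in AFDN, 26 in NECTIN2 and 36 in NECTIN3, all above the median of 14. AFDN and NECTIN3 are also above the upper quartile of 28, and NECTIN2 is not. The NECTIN3 window thus holds more CpG than that of NECTIN2, with an RNA level of 0.106 against 16.8 FPKM. A match of letters is a description and not a binding site.

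Set side by side as RNA, CTNNA1, CTNND1 and CTNNB1 with JUP exceeded the sum of CDH1 and CDH3, the classical cadherins among the members. CDH24, another cadherin that binds catenins, averaged 7.56 FPKM over the 6 libraries and is not in that sum. CDH1 and CDH3 summed to 11.0 to 12.2 FPKM per library. CTNNA1 stood at 7.59 to 8.70 times that sum, CTNND1 at 1.99 to 2.30 times, and CTNNB1 with JUP at 8.02 to 9.05 times. Controls and targeted libraries overlapped in each of these ratios (exact two-sided permutation p = 0.8, 0.3 and 0.4, where 3 against 3 libraries cannot go below 0.1). The ratios concern RNA per gene length and not protein.

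**Figure D3:**
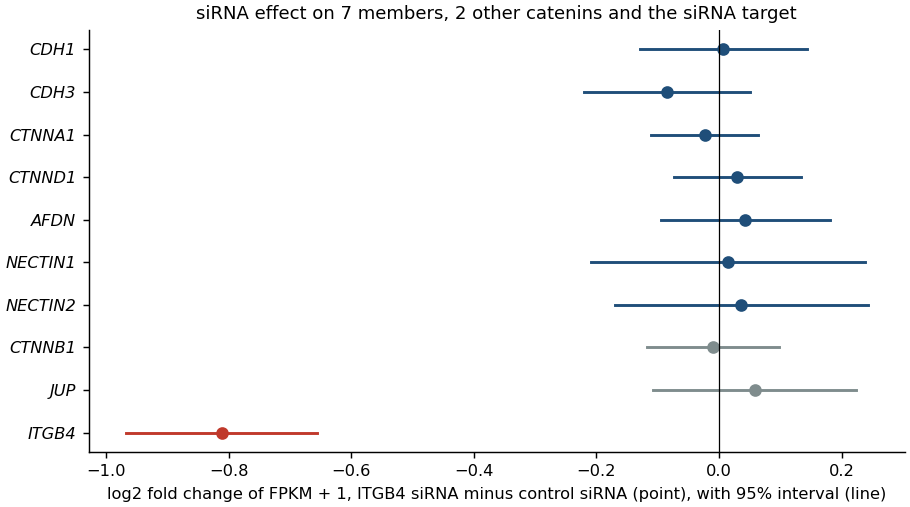
Effect of the ITGB4 siRNA on the 7 tested members (blue), CTNNB1 and JUP (grey) and ITGB4 (red). Points are log2 fold changes of FPKM + 1, ITGB4 siRNA minus control, and lines are 95% intervals from limma. All 9 junction genes have intervals that include 0, and ITGB4 lies at -0.81.

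β-catenin and plakoglobin, the catenins that recruit α-catenin to the cadherin tail, also had overlapping groups. CTNNB1, β-catenin, was at 63.1, 68.1 and 66.2 FPKM in the controls and 64.8, 67.3 and 63.9 FPKM in the targeted libraries, a log2 fold change of -0.0095 (95% interval -0.12 to 0.10). JUP, plakoglobin, was at 34.4, 29.9 and 32.2 FPKM and at 35.8, 33.4 and 31.3 FPKM, a log2 fold change of 0.06 (95% interval -0.11 to 0.22). In the list of 8 catenin and armadillo genes that holds CTNNB1 and JUP, 6 were tested and 0 were called, with a median of -0.0059. PKP4, a p120 relative, was at 26.6 ± 0.371 and 26.2 ± 0.400 FPKM, CTNNBIP1, an inhibitor of β-catenin binding to TCF factors, at 1.93 ± 0.489 and 2.10 ± 0.345, and ARVCF, another p120 relative, at 3.38 ± 0.622 and 3.17 ± 0.440 (SD, n = 3 each).

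Other cadherins were mostly below the testing minimum. Of 34 genes in that list, 27 were below 1 FPKM and 11 had no read in any library. CDH2, N-cadherin, often gained by carcinoma cells that lose epithelial character, was among the 11. Its count was 0 among 89280994 reads in the 6 libraries, which allows up to 3 reads and covers counting error only. FAT1, a giant protocadherin-like receptor, was the highest of the 7 tested at 50.4 ± 4.11 FPKM in the controls and 50.5 ± 2.46 FPKM in the targeted libraries (SD, n = 3 each).

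None of those 7 other cadherins was called changed, and their median log2 fold change was -0.0091. CDHR3, a cadherin-related receptor of airway epithelium, was at 4.89, 4.95 and 4.61 FPKM in the controls and 4.00, 4.21 and 4.48 FPKM with ITGB4 siRNA. All its targeted libraries lay below all its controls (log2 fold change -0.15, limma adjusted p = 0.834). CDH24, a type II cadherin that binds catenins, also had groups that did not overlap, at 7.98 ± 0.526 and 7.14 ± 0.315 FPKM (SD, n = 3 each; -0.14, limma adjusted p = 0.883). CELSR2 was at 8.003 ± 0.551 and 7.38 ± 0.571 FPKM and CELSR3 at 6.13 ± 0.329 and 6.25 ± 0.227, both of the planar polarity cadherins.

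In the list of nectin relatives and actin linkers, 24 of 28 genes were tested and 0 were called, with 7 above 0, 17 below and a median of -0.04. AJUBA, a LIM protein that binds α-catenin, was at 8.57 ± 0.425 and 7.91 ± 0.112 FPKM, with groups that did not overlap (log2 fold change -0.10, limma adjusted p = 0.938). SSX2IP, which binds afadin and α-actinin, was at 3.72, 4.61 and 4.48 FPKM in the controls and 2.96, 3.62 and 3.82 FPKM in the targeted libraries (-0.24, limma adjusted p = 0.863). ACTN4, an actin crosslinker and the most abundant of the list, was at 528.6 ± 32.1 and 497.6 ± 18.8 FPKM, and VASP, which promotes actin filament growth, at 37.2 ± 3.39 and 40.2 ± 1.61 (SD, n = 3 each).

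The list of cadherin turnover and signalling held PTPRJ, the gene with the largest log2 fold change by size in the 5 related lists. Of 28 genes 25 were tested, limma called 0 at the adjusted threshold, while the unadjusted p was under 0.05 for 3 with a higher and 1 with a lower mean, against 5.83% of all genes tested (374 higher, 376 lower). PTPRJ, a receptor phosphatase for which p120 catenin is a known substrate, was at 11.3, 11.1 and 11.3 FPKM in the controls and 14.0, 13.9 and 14.2 FPKM with ITGB4 siRNA. Each targeted library exceeded every control by more than the spread within a group. Mean FPKM was 24.8% higher, and the log2 fold change of FPKM + 1 was 0.30 with an SE of 0.0422 and a 95% interval of 0.20 to 0.40. PTPRJ did not pass with limma (adjusted p = 0.148) and passed with limma-voom (adjusted p = 0.0302). Over 14 alternatives its adjusted p ran from 0.0302 to 0.623, and limma-voom was the only one of them to call it.

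RAC1, a small GTPase that drives actin assembly at new contacts, was at 95.7 ± 4.85 and 106.2 ± 4.28 FPKM (log2 fold change 0.15, limma adjusted p = 0.806). PTPRF, a receptor phosphatase found with β-catenin at junctions, was at 8.72 ± 0.548 and 7.72 ± 0.103 FPKM (-0.16, limma adjusted p = 0.813). ARHGAP35, p190RhoGAP, which p120 catenin recruits to restrain RHOA, was at 27.3 ± 0.226 and 29.2 ± 0.381 FPKM (0.09, limma adjusted p = 0.852). RHOA was at 148.2 ± 4.05 and 148.8 ± 4.12 FPKM (0.0062; SD and n = 3 for all 4 genes). The groups of RAC1, PTPRF and ARHGAP35 did not overlap and those of RHOA did. In all, 7 of the 25 had groups that did not overlap, 5 higher and 2 lower, against 11.1% of all genes tested with no overlap. The list was chosen with earlier results of these data known, so this share is a description and not a test.

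**Figure D4:**
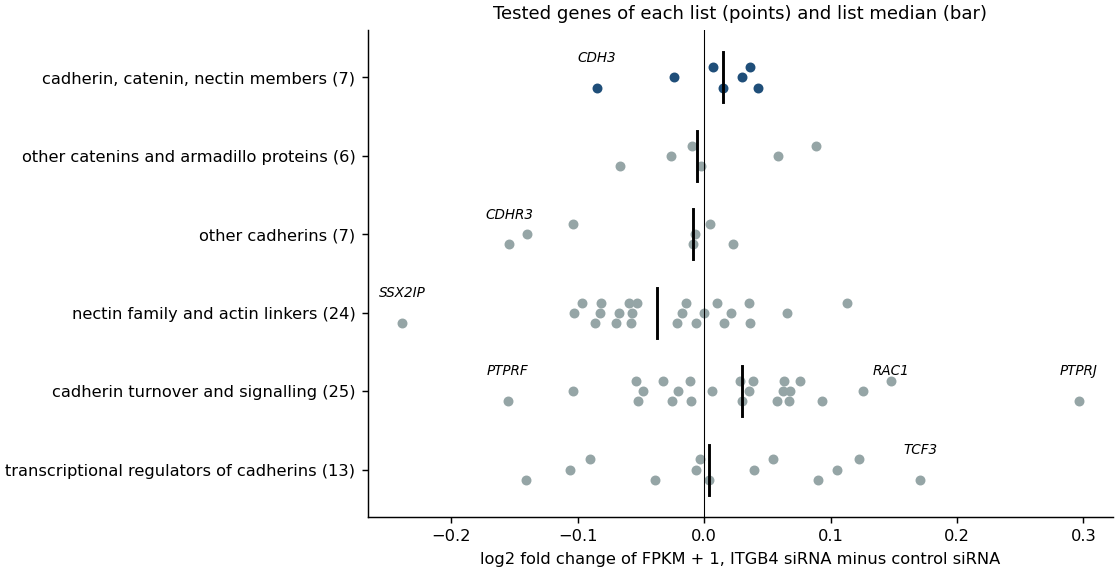
Log2 fold changes of FPKM + 1, ITGB4 siRNA minus control, for the tested genes of the members' list and of 5 related lists. Each point is a gene and the bars are list medians, with the number tested in brackets. The 7 members span -0.08 to 0.04, and PTPRJ at 0.30 is the farthest point to the right.

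Transcriptional regulators of cadherin genes, listed with the splicing regulators ESRP1 and ESRP2, were measured as well. Repressors of the SNAI, ZEB and TWIST families act on CDH1. Of 25 genes, 13 were tested and 0 were called, with groups that overlapped in all 13 and a median log2 fold change of 0.0036. KLF5, an intestinal epithelial factor, was highest at 35.9 ± 0.657 and 34.9 ± 1.79 FPKM. TCF3, which encodes the E-box binding E2A proteins, was at 22.6 ± 2.83 and 25.5 ± 1.65 FPKM (0.17, limma adjusted p = 0.951), ZEB1 at 1.53 ± 0.227 and 1.75 ± 0.223 FPKM (0.12) and KLF4 at 3.26 ± 0.282 and 2.86 ± 0.161 FPKM (-0.14; SD, n = 3 each). TWIST1 had no read, and ZEB2 reached 0.0052 FPKM and GRHL2, an activator of CDH1, 0.0112 FPKM at most. Of the SNAI genes, SNAI1 was at 1.93 ± 0.425 and 1.99 ± 0.0431 FPKM and SNAI2 at 1.08 ± 0.169 and 1.21 ± 0.064 (SD, n = 3 each). SNAI3 was below the filter, at 0.584 to 0.964 FPKM. Averages over the 6 libraries were 2.18 FPKM for GRHL1, 2.60 for OVOL2, 11.6 for ESRP1 and 12.5 for ESRP2.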

How the data were processed

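RNA from 6 SW480 libraries was captured on poly-T beads, per the labels' protocols. The authors deposited FPKM per gene with the gene length used, on GRCh38 per the submitters' processing notes, which name DESeq2 and edgeR without their role. The aligner, counting tool and strand setting are not given in the sources used here. The deposited gene length, another column of the authors' table, equals the summed exons of GENCODE 29 for 58690 of 58735 genes, so that annotation was used for overlaps and GC.

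FPKM times length, divided by the value of 1 read, gave whole numbers for 100% of values above 0 at a tolerance of 0.01, and the reads were recovered this way. Testing was limited to the 12871 genes averaging 1 FPKM or more, as log2(FPKM + 1) with limma 3.58.1 in R 4.3.3 (limma-trend, no replicate term, two-sided, Benjamini-Hochberg over all genes tested, threshold 0.05). FPKM + 1 understates changes of low genes. Single values were compared by exact permutation of the libraries (scipy 1.17.1 in Python 3.11.15). The fits were tested on simulated data.

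Members, ITGB4, CTNNB1 and JUP were named whatever their values, with up to 4 genes of smallest p and the highest gene of each of 5 lists. Other list genes given with values were named after their values were seen, among them PVR, NECTIN4, CTNNA3, CDH2, CDC42, TWIST1, ZEB2 and GRHL2. Members and lists were chosen with earlier results of these data known. Alternatives were a pseudocount of 0.1, no filter or a minimum of 5 FPKM, TPM, median-of-ratios scaling, robust moderation, a replicate block, leaving out each library, and limma-voom on recovered reads.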

Additional observations from a re-analysis of the deposited data

How the results depend on the processing

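For the 7 tested members, 92 of 98 comparisons over 14 alternatives kept their direction and stayed uncalled, and 6 turned sign. All 6 came from leaving out control siRNA replicate 2 or ITGB4 siRNA replicate 1, which took CDH1, NECTIN1 and NECTIN2 below 0. Over the libraries left out in turn, CDH1 ran from -0.032 to 0.036, NECTIN1 from -0.0566 to 0.0998 and NECTIN2 from -0.0282 to 0.1023. The lowest adjusted p of any member was 0.698, without control siRNA replicate 1. The members' median ran from -0.0282, without control siRNA replicate 2, to 0.036. The cause of these shifts was not tested. Among 24 other named genes, 318 of 330 comparisons kept direction and call and 11 turned sign. The remaining 1 gained a call (PTPRJ with limma-voom, the 1 gene called in the turnover list). ITGB4, whose lost calls are given above, is not among these 24 genes. Leaving out single libraries took ARVCF over -0.174 to 0.0325, CELSR3 -0.0104 to 0.0562, CTNNB1 -0.039 to 0.0153, FAT1 -0.0581 to 0.0571 and RHOA -0.0135 to 0.029.

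Over all genes, 6 were called changed (3 higher, 3 lower). No low-value filter gave 0 (0 higher, 0 lower, with 1356 at an unadjusted p under 0.05) and put ITGB4 at -0.8113 (adjusted p = 0.0618), and limma-voom gave 27 (12 higher, 15 lower), 5 of them shared. Leaving out a library gave 0 to 7 (0 to 4 higher, 0 to 4 lower) and ITGB4 at -0.8686 to -0.7604 (adjusted p up to 0.137). Genes numbered 0 without ITGB4 siRNA replicate 1, 2 or 3 (604, 545 and 581 at an unadjusted p under 0.05) and 3 without control siRNA replicate 3, with fewer libraries in the fit. The replicate block gave 0 (0 higher, 0 lower; 1064 at an unadjusted p under 0.05) and ITGB4 at -0.8113 (adjusted p = 0.0564). Deviations from the group means correlated across genes at 0.173, 0.102 and -0.01 between libraries of number 1, 2 and 3, and number 3 did not match its own number best, so the numbers were not taken as pairs. Depth limits CDH17, CTNNA2 and NECTIN3, which had at most 15 reads in a library.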

Other observations

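Between the classical cadherins, the ratio of CDH3 to CDH1 in FPKM was 0.864, 0.887 and 0.896 in control replicates 1, 2 and 3 and 0.819, 0.811 and 0.823 with ITGB4 siRNA. All 3 targeted libraries lay below all 3 controls (0.882 ± 0.0163 against 0.818 ± 0.0061, SD, n = 3 each). This ratio was 1 of 8 quantities computed among members and catenins after their values were seen. Its exact two-sided permutation p was 0.1, the smallest that 3 against 3 libraries allow, and 0.8 after Benjamini-Hochberg adjustment over the 8, so it failed the correction. The other 7 had groups that overlapped, and groups did not overlap in 11.1% of all genes tested. Counting error of the ratio was 5.94% to 6.34% per library, larger than its coefficient of variation of 1.84% in the controls and 0.751% with ITGB4 siRNA, so the spread between these libraries is narrower than their read numbers would give.

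CDC42, a small GTPase of cell polarity that acts downstream of nectins and cadherins, was listed at 0.0602 to 0.309 FPKM, while RHOA stood near 148.2 FPKM and RAC1 near 95.7 in the controls. In GENCODE 29, 2055 of its 3598 exonic bases (57.1%) are shared on the same strand with the protein-coding gene AL031281.2, itself at 0.0424 to 0.142 FPKM. Whether the shared exons set these low values was not tested. Among the members the longest overlap on the same strand is the 321 bases of CTNND1 with TMX2-CTNND1, while 694 of 6236 exonic bases of CDH3 (11.1%) are shared with an antisense gene, AC126773.2, at 0 to 0.191 FPKM.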
